A study of Homo sapiens with 2 samples.

Results

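The virus restriction effectors treated here are 10 interferon-stimulated genes whose products act on viruses inside or at the surface of the cell: SHFL, MX1, MX2, ISG20, LY6E, SAMHD1, SAMD9, SAMD9L, CMPK2 and RSAD2. Their rows were found by gene name in the deposited list of IRF1 binding summits, in which SHFL carries its earlier symbol C19orf66. Of the 10 genes, 8 were named in the list, with 11 of its 1986 summits (0.554%) between them, and MX2 and RSAD2 were named for none. The study profiled IRF1 by chromatin immunoprecipitation and sequencing (ChIP-seq) in NB4 cells, a human cell line established from acute promyelocytic leukemia, a disease driven by the PML-RARA fusion protein. Cells were treated with ATRA (all-trans retinoic acid), which makes such cells differentiate, or with DMSO as the control, each for 4 hours, and each group had 1 library. The summits come from the ATRA library, and no values of the DMSO library were analysed here. The results therefore describe where IRF1 was called in ATRA-treated cells, without a measured effect of ATRA and without a spread between replicates. Which background the sites were called against is unknown from the sources used here, and with the DMSO library as background the summits would be sites enriched over DMSO cells. The list holds no expression values, so the labelled cell type was not checked against markers.

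IRF1 is a transcription factor that binds DNA through repeated GAAA units, the core of the interferon-stimulated response element found at many antiviral genes. Restriction effectors are the end products of that response, and between them they block several steps of the viral cycle, such as entry, uncoating, reverse transcription, translation or genome replication. Several lie beside a paralogue or a partner enzyme: MX1 beside MX2, SAMD9 beside SAMD9L, and CMPK2 beside RSAD2.

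The promoter sequences come first, because the letters around the summits differ between the genes. Sequences and start sites are from the RefSeq promoter table of GRCh38.p14, whose windows run from 250 bases before to 50 bases after a transcription start site (TSS). Of the 10 genes, 8 had at least 1 such window, and MX2 and LY6E had no entry. A window with a summit inside it was found for 7 genes: SHFL, MX1, ISG20, SAMD9, SAMD9L, and CMPK2 and RSAD2 with the same summit. Windows were searched on either strand for the response element (GAAA, any 2 bases, GAAA), an ETS-IRF type element (GGAA, any 2 bases, GAAA), the IRF core AANNGAAA and the gamma-activated site TTCNNNGAA. Each match to the first or the second also holds an IRF core, and their letters differ at the second base, so they never match at the same position. The following windows are those with a summit inside, written in the direction of transcription of the gene named. For SHFL and ISG20, whose summits the authors placed in a 5′ UTR, only 30 bases around the element are given. Both of these stretches end before the summit.
In SHFL (chr19:10086264-10086293, plus strand) and ISG20 (chr15:88638937-88638966, plus strand) the capitals mark the response element.
SHFL: cccctgaatcGAAAGCGAAAcaggggccgg
ISG20: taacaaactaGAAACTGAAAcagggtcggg
For MX1 (chr21:41420308-41420607, plus strand) and SAMD9 (chr7:93117930-93118229, minus strand) the capitals also mark the response element, here in the whole window of 300 bases.
MX1: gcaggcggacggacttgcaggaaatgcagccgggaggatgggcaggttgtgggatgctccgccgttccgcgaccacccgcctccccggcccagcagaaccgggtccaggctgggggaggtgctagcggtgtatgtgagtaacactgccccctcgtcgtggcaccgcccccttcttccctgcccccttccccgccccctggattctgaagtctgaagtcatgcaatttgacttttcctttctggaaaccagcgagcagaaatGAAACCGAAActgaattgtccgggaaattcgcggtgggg
SAMD9: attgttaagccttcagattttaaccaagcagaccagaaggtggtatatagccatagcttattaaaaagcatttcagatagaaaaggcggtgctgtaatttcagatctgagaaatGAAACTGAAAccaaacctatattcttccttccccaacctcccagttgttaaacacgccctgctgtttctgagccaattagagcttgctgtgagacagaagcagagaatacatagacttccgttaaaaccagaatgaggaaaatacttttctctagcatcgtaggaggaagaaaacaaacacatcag
The window of RSAD2 (chr2:6865635-6865934, plus strand) is shown with its ETS-IRF type elements in capitals, because the summit named for CMPK2 lies inside it.
RSAD2: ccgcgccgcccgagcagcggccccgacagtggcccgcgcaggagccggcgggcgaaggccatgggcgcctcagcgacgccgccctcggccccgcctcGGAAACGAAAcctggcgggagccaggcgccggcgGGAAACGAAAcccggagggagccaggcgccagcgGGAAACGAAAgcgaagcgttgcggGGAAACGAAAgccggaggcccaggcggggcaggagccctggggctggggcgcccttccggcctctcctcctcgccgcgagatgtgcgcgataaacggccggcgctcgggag
In the window of SAMD9L (chr7:93148336-93148635, minus strand) the capitals mark its single IRF core, since neither of the longer elements matched.
SAMD9L: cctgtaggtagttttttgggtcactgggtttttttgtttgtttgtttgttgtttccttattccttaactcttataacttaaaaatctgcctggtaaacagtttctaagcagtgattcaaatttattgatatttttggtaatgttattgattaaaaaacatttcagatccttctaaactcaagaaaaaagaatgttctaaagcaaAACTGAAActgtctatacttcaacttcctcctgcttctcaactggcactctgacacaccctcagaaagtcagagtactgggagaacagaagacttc

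In the window that held the summit, the response element was present in 4 of the 7 genes, namely SHFL, MX1, ISG20 and SAMD9. Of all 34943 RefSeq windows 3.57% held it, and of the 299 windows with any IRF1 summit 115 did (38.5%). The summit windows of CMPK2 and RSAD2 held the ETS-IRF type element, which was found in 2.82% of all windows and in 15.4% of windows with a summit. These windows of CMPK2 and RSAD2 overlap and share their summit, and every CMPK2 match is also an RSAD2 match, so they are not separate cases. The IRF core was present in the summit windows of all 7 genes, against 22.9% of all windows and 64.9% of those with a summit. The gamma-activated site matched in none of these 7 summit windows, and it was found in 7.66% of all windows and 7.69% of those with a summit. These matches describe letters in the windows and are not measured binding sites.

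**Figure D1:**
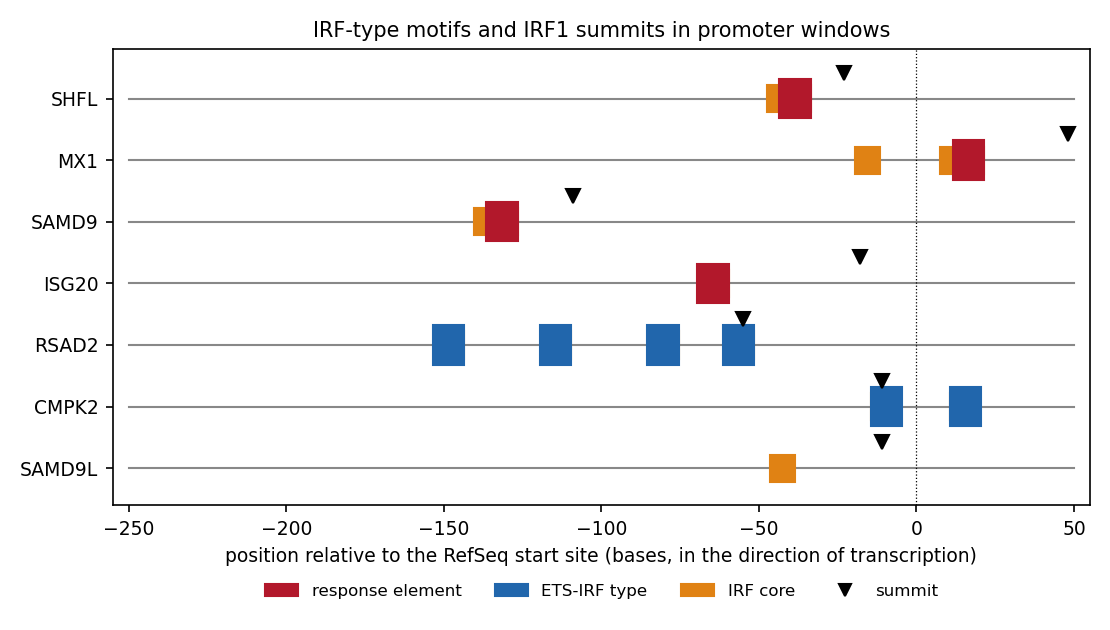
Promoter windows of the 7 genes with a summit inside, from 250 bases before to 50 bases after the RefSeq start site (x axis, bases), with boxes for motif matches and a triangle for the summit. IRF cores that lie inside a longer element are covered by its box. The summit of CMPK2 and RSAD2 is the same and lies inside an ETS-IRF type element, while those of SHFL, MX1, SAMD9 and ISG20 lie 11, 27, 18 and 42 bases from the response element.

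SHFL, an inhibitor of programmed ribosomal frameshifting that lowers the output of many RNA viruses, had the highest summit among these genes. Its score was 320.5, which ranked 2 in the whole list and first of the 39 summits in 5′ UTRs. The score is the authors' own value on a scale that the file does not state, and it serves here to rank summits within this list, whose median was 25.2 and whose quartiles were 17.7 and 44.0. The SHFL summit lay at chromosome 19 position 10086294, 11 bases from the element GAAAGCGAAA. Across the 115 windows with both a summit and a response element, the median distance between them was 11 bases, with quartiles of 6 and 21. In the deposited list this summit was 175 bp downstream of the TSS, in exon 1 of 8 of NM_018381, whereas the RefSeq start site placed it 23 bp upstream. A single further summit lay within 100 kb, at the promoter of EIF3G, a subunit of a translation initiation factor, with a score of 14.1 at a distance of 33673 bp.

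MX1 and MX2 encode dynamin-like GTPases that trap viral nucleocapsids, MX1 mainly in the cytoplasm and MX2 at the nuclear envelope. MX1 had 1 summit, with a score of 109 and rank 135, at chromosome 21 position 41420605, 47 bp downstream of its TSS. MX2 was named for no summit. The MX2 gene ends 11165 bp before MX1 begins, and the MX1 summit lay 11212 bp beyond the MX2 span and 58578 bp from its far end. No other summit lay within 100 kb of either gene, the nearest being 506093 bp from the MX1 summit. IRF1 was thus called at 1 of the 2 paralogues, and since MX2 has no value, no difference in score can be given.

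The MX1 summit was 27 bases downstream of the element GAAACCGAAA, which starts 12 bases into the transcript counting the start site as 1. A further GAAA stands 1 base before this element, so that the window holds 3 GAAA units with gaps of 1 and 2 bases. SAMD9 had the same arrangement around its element GAAACTGAAA. Among all 34943 windows 38 had this arrangement (0.109%), and among the 299 with a summit 11 had it (3.68%). RefSeq lists 3 windows for MX1, and those of the 2 other start sites contained no summit, although a window at position 41432050 held the element GAAAGAGAAA and a gamma-activated site.

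**Figure D2:**
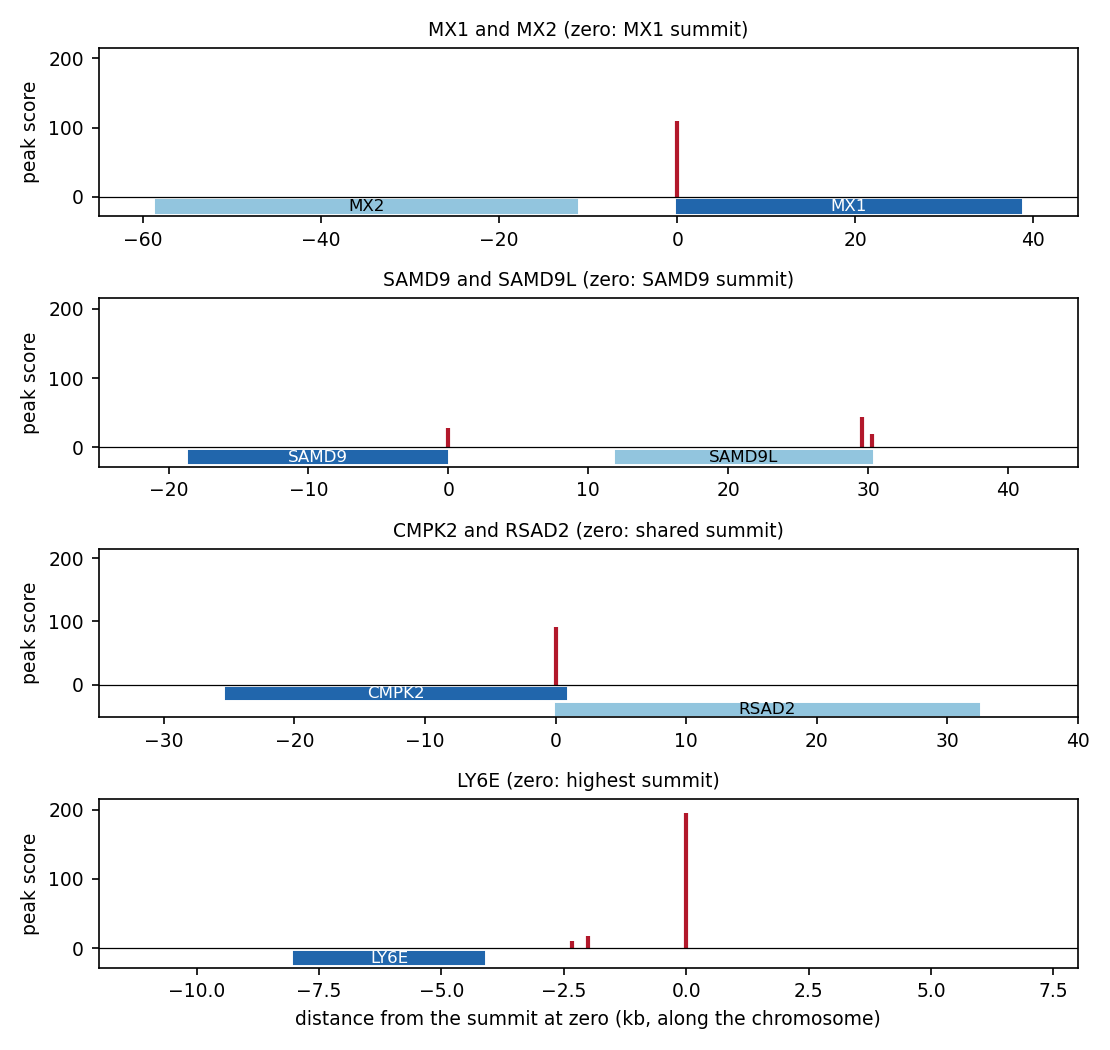
IRF1 summits (red lines, height is the authors' peak score) and RefSeq gene spans (blue boxes) around MX1 and MX2, SAMD9 and SAMD9L, CMPK2 and RSAD2, and LY6E, in kb from the summit placed at zero. MX1 had a summit and MX2 none, SAMD9 had 1 and SAMD9L 2, a single summit lay inside CMPK2 just before the start of RSAD2, and the 3 summits of LY6E lay beyond the gene.

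SAMD9 and SAMD9L are paralogues that restrict poxviruses and inhibit translation, and inherited changes in either gene disturb blood cell formation. SAMD9 had a single summit with a score of 28.0 (rank 864) at chromosome 7 position 93118088, 65 bp upstream of its TSS in the deposited list and 109 bp upstream of the RefSeq start. SAMD9L had 2 summits 758 bp apart. The higher scored 43.4 (rank 508) in intron 1 of 4, 750 bp downstream of the TSS, and the lower scored 18.7 (rank 1398) at the promoter, 8 bp upstream. SAMD9 scored 15.4 below SAMD9L when the best summits were set side by side (28.0 against 43.4). At the promoters the order was the other way, 28.0 for SAMD9 and 18.7 for SAMD9L, a difference of 9.29. With no replicate, the size of these differences cannot be set against an error.

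The SAMD9 and SAMD9L spans are 12077 bp apart, and the SAMD9 summit lay 29550 bp from the nearer SAMD9L summit. The SAMD9 element GAAACTGAAA stands 18 bases from the summit. The SAMD9L promoter window has the letters AACTGAAA, which also end the SAMD9 element, 28 bases from the promoter summit. This window held no exact response element. The higher SAMD9L summit, in the intron, lay outside the window, so the letters under it were not read. The windows of both genes were poor in CpG dinucleotides, with 4 in SAMD9 and 0 in SAMD9L, against a median of 14 in all windows and 23 in windows with a summit. How reads that match more than 1 place were treated is not given in the sources used here, and the part of sequence similarity between the paralogues in these values was not tested.

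CMPK2, a mitochondrial nucleotide kinase, and RSAD2, also called viperin, the enzyme that turns CTP into a chain terminator of viral RNA synthesis, stand head to head on chromosome 2. Their RefSeq spans overlap by 751 bp. The single summit of the locus scored 90.5 (rank 199) at position 6865830 and was named for CMPK2, 11 bp upstream of the TSS of NM_001256478. The same summit lay 55 bp upstream of the RefSeq start of RSAD2. By the nearest-gene rule RSAD2 has no summit, whereas by position the summit is inside the promoter windows of both genes, so it cannot be assigned to either alone. No other summit lay within 100 kb of either span, and the nearest on the chromosome was 1669011 bp away.

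The sequence at this summit is a tandem array. The RSAD2 window held 4 copies of GGAAACGAAA on the RSAD2 strand, with starts 34, 34 and 24 bases apart, and the summit lay inside the copy nearest to RSAD2. Of all 34943 windows, this was the only one with at least 4 ETS-IRF type matches. The overlapping CMPK2 window held 2 of the copies on its opposite strand, and it and the RSAD2 window were the only 2 windows with at least 2 copies of this word. The RSAD2 window is also GC-rich, with 75.3% G or C and 45 CpG dinucleotides. The medians were 58.7% and 14 in all windows, and 62.7% and 23 in windows with a summit. The windows at the 2 other CMPK2 start sites held none of the 4 motifs and no summit. The second RSAD2 window, at position 6877777, held the response element GAAACTGAAA and no summit.

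LY6E, a lipid-anchored surface protein that blocks coronavirus entry, differed from the other genes in position: none of its summits lay within 5 kb of the start site. Its 3 summits lay 5708, 6038 and 8047 bp downstream of the TSS, all in intergenic sequence beyond the 3′ end of the gene, with scores of 10.7, 17.5 and 196. The highest, at chromosome 8 position 143026532 and 4123 bp past the gene, ranked 31 in the list and 8 of the 731 intergenic summits, whose median score was 24.8. It stood 2009 bp from the next summit, while the 2 low summits were 330 bp apart and both below the list's first quartile. LY6E was 1 of 20 protein-coding genes named for at least 3 summits, out of 1275 named for any. The nearest-gene rule assigns these sites to LY6E by distance alone, and which gene they act on was not measured.

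ISG20, an exonuclease that degrades viral RNA, and SAMHD1, which hydrolyses the nucleotides needed for reverse transcription in myeloid cells, had 1 low or middling summit each. The ISG20 summit scored 18.7 (rank 1379) at chromosome 15 position 88638998. The deposited list gives it as 255 bp downstream of the TSS of NM_001303237, in exon 1 of 4 of NM_002201, and the RefSeq window placed it 18 bp upstream of a start site. The ISG20 element, GAAACTGAAA, has the same letters as that of SAMD9 and stands 42 bases from the summit. That distance was above the upper quartile of 21 bases over all such windows, as was the distance of 27 bases at MX1. The scores of ISG20 and of the SAMD9L promoter summit were nearly equal, and 40 summits of the list, these included, lay within 0.01 of each. The SAMHD1 summit scored 30.3 (rank 805) at chromosome 20 position 36950907, in intron 1 of 15, 936 bp from the TSS of the list and 801 bp from that of RefSeq. It lay outside the SAMHD1 promoter window, which held none of the 4 motifs, so the letters under this summit were not read.

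**Figure D3:**
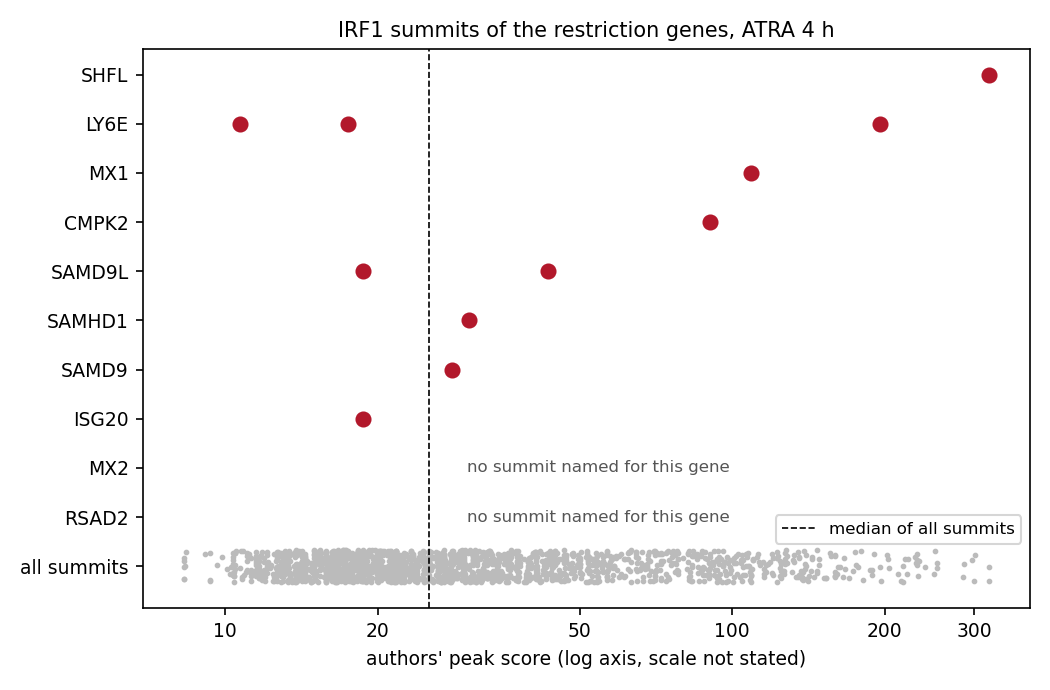
The authors' peak score (x axis, log scale) of each summit named for the 10 genes, with all 1986 summits of the list in grey and their median of 25.2 as a dashed line. The members range from 320.5 for SHFL to 10.7 for the lowest LY6E summit, and MX2 and RSAD2 have no summit of their own.

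As a group, the 11 summits had a median score of 30.3, against 25.2 for the whole list, and 7 lay above the list's median. Above the list's upper quartile of 44.0 lay 4 of them, those of SHFL, LY6E, MX1 and CMPK2. By class, 4 were promoter summits, 2 lay in 5′ UTRs, 2 in introns and 3 in intergenic sequence. In the whole list promoters made up 19.3%, 5′ UTRs 1.96%, introns 35.1% and intergenic sequence 36.8%. Within 1 kb of a TSS lay 8 of the 11, against 539 of all 1986 (27.1%). The list names repeats and CpG islands at intronic and intergenic summits only, where 0 of the 5 member summits carried such a name, against 42.7% of 1429 in the list.

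**Figure D4:**
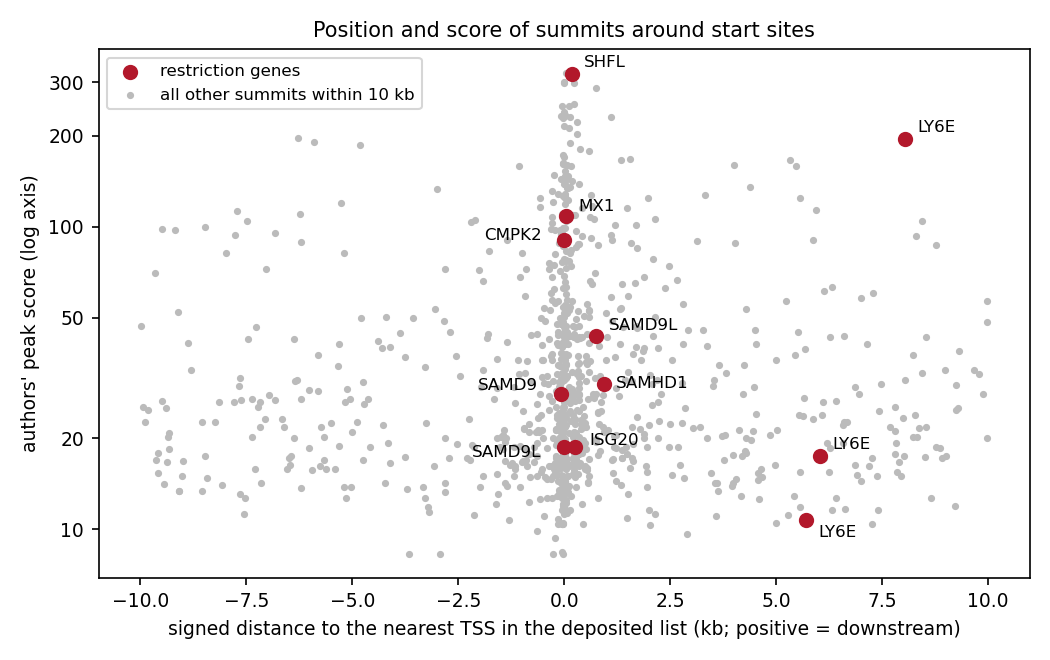
Signed distance to the nearest TSS in the deposited list (x axis, kb, positive is downstream) and the authors' peak score (y axis, log scale) of the 11 summits of the restriction genes (red) and of all other summits within 10 kb (grey). The summits of 7 genes lie within 1 kb of the TSS, and the 3 of LY6E lie between 5708 and 8047 bp downstream.

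Counted by gene, 8 of the 10 were named for a summit at any distance, against 6.38% of 19974 protein-coding genes, and the same 8 for a summit at most 10 kb from the TSS, against 3.36%. Within 1 kb the count was 7, against 2.03%, the gene left out being LY6E. SAMD9L and LY6E were named for at least 2 summits, as were 0.706% of protein-coding genes. When any summit within 10 kb of the gene span was accepted, RSAD2 joined and 9 of the 10 genes counted, against 7.45%. MX2 missed this limit by 1212 bp, measured from the end of its span nearest to MX1, while its far end was 58578 bp from the MX1 summit. These shares describe 1 library and no test was made of them, since the genes were chosen with results of these data known.

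Of 21 other protein-coding genes within 100 kb of a member, 1 was named for a summit (4.76%), the EIF3G gene near SHFL, a share near the 6.38% of all protein-coding genes. ANGPTL6, which overlaps SHFL, TMPRSS2 beside MX1, FAM3B beside MX2, AEN beside ISG20, HEPACAM2 beside SAMD9L and LY6S beside LY6E were named for none.

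A list of 60 other antiviral genes, chosen with earlier results of these data known, was set beside them under the same rule. Of these, 32 were named for a summit at most 10 kb away, against the same 3.36% of protein-coding genes, and 30 for a summit at most 1 kb away. The best summits of the 8 restriction genes had a median score of 66.9 (18.7 to 320.5), those of the 32 other antiviral genes a median of 72.6 (10.4 to 287), and those of all 672 protein-coding genes with a summit within 10 kb a median of 28.8. The members' median rests on the distal LY6E summit: with summits at most 1 kb from the TSS it was 43.4 over 7 genes, against 76.8 over 30 other antiviral genes and 30.8 over 405 protein-coding genes. The highest of the other genes was PARP12, an ADP-ribosyltransferase, with 287, below SHFL. MOV10, an RNA helicase that restrains retroviruses and retrotransposons, scored 181, and ADAR, the enzyme that edits double-stranded RNA, scored 159, both below the LY6E summit of 196. HELZ2, a helicase, scored 128, DDX60, a helicase linked to RNA sensing, scored 125, and HERC6, a relative of the ISG15 ligase, scored 117. APOBEC3G, a cytidine deaminase that mutates retroviral DNA, scored 109 and had exactly the score of MX1, and EIF2AK2, the kinase PKR that halts translation, scored 104. OAS3, which makes the second messenger that switches on RNase L, scored 97.8, and IFI6, an inhibitor of flavivirus replication, scored 94.6, both between MX1 and CMPK2. Genes of the list without a summit included IFITM1, IFITM2, IFITM3, BST2 and OAS2, all interferon-stimulated restriction genes like MX2.

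**Figure D5:**
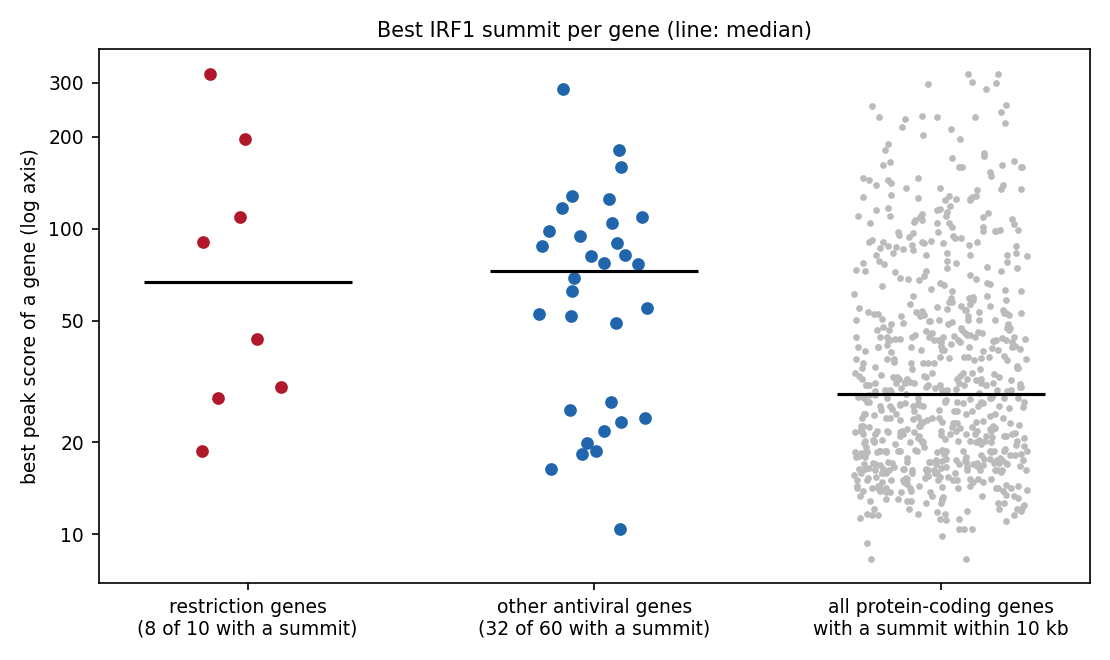
Best peak score per gene (y axis, log scale) for the 8 of 10 restriction genes with a summit, the 32 of 60 other antiviral genes and all 672 protein-coding genes with a summit within 10 kb, with a line at each median. The medians are 66.9, 72.6 and 28.8.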

How the data were processed

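One deposited file was used, a list of 1986 summits whose name carries the title of the ATRA library. The submitters' processing notes name Bowtie2 2.2.9, MACS 1.4.2 and hg38. HOMER's annotatePeaks.pl was run on a summits file with hg38, per the file headers. The peak score is the authors' deposited value, its scale is not stated, and distances and nearest genes are the authors'. Calling threshold, background and read depth were not given in the sources used.

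The 10 members and the 60 other antiviral genes were chosen with earlier results of these data known, and all are described without a test. All 10 members were matched to RefSeq genes of GRCh38.p14 by Entrez identifier, and 1977 of 1986 summits had their gene in that table. Background shares used 19974 autosomal and X-linked protein-coding genes. RefSeq promoter windows with the same coordinates and strand were counted once, leaving 34943. The motif search was tested on simulated data with planted elements. The rule for named genes took all members, the 10 antiviral genes with the highest scores and the genes of summits within 100 kb; neighbours without a summit, antiviral genes without one, the array of GAAA units and the copy counts were chosen after their values were seen. Alternatives were the summits at or above the median score, merging of summits under 200 bp apart, TSS distances of 1 kb and 5 kb, gene spans, and 1 mismatch in the element. Python 3.11.15, pandas 2.3.3, numpy 2.4.6 and matplotlib 3.10.9 were used.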

Additional observations from a re-analysis of the deposited data

How the results depend on the processing

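No paired analysis was possible because the ATRA and control groups each had 1 library, which also means that none could be left out. Requiring a score at or above the list's median left 7 of the 11 summits and moved the median best score of the members to 90.5, because it drops the low summits by construction. Keeping summits within 1 kb of the TSS moved that median to 43.4, because LY6E drops out. The count of members with a summit was between 7 and 9 under every alternative tried. That of the 60 other antiviral genes was between 30 and 32 for the TSS distances tried. It was 34 for gene spans within 10 kb of a summit, the rule that gave 9 members. Merging summits under 200 bp apart changed neither the 11 summits nor the median of 66.9. SAMD9 minus SAMD9L was -15.4 for the best summits, -34.1 for summed scores and 9.29 for promoter summits. With 1 mismatch allowed all 8 genes with a window held the response element, against 5 for the exact element in any window. Counted by window, 10 of the 13 member windows matched with 1 mismatch, against 33.1% of all windows. The exact element matched in 6 of the 13, against 3.57% of all windows. The promoter comparison, the RefSeq distances, the 1 kb medians of genes other than members and the restriction to windows with a summit were chosen after seeing the data. RefSeq start sites turned the distances of SHFL to -23 and of ISG20 to -18, upstream of the TSS. An absent summit, as for MX2, does not show absent binding, since depth and threshold are unknown.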

Other observations

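In all 4 windows of restriction genes with a response element and a summit (SHFL, MX1, ISG20 and SAMD9) the base after the element was C. In the other windows with a summit 54 of 143 matches were followed by C (37.8%), and in windows without a summit 237 of 1201 were (19.7%). This count was made after the sequences had been seen, on few members, and no test was run.

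The deposited scores take a limited set of values. The 1986 summits had 1046 distinct scores, and 1221 of them (61.5%) shared their exact score with at least 1 other. MX1 shared its score with 2 other summits, SAMD9 with 9, ISG20 with 17 and the promoter summit of SAMD9L with 20, whereas SHFL and the highest LY6E summit had scores of their own. Ranks among the low scores therefore rest on small steps.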
